A study of Mus musculus with 24 samples.

Results

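The solute carrier (SLC) genes of mouse osteoclast precursors were described over 4 days of differentiation, with and without STING. Members were all genes of the deposited expression table whose symbol begins with Slc and a family number, apart from Slc2a1 and Slc4a2. The rule used names only and no measured value, and it gave 186 of the 10721 genes in the table, in 44 families. Of these, 171 reached a group mean of at least 1 FPKM (fragments scaled to transcript length and to the library's mapped total) in at least 1 group and were tested. The other 15 stayed at or below a group mean of 0.905 FPKM. The names of 4 members do not denote carriers, namely Slc9a3r1 and Slc9a3r2, which encode scaffold proteins, Slc4a1ap, an adaptor protein, and the pseudogene Slc2a4rg-ps, so 169 carriers were tested. Slc24a6 is the older symbol of Slc8b1.

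RNA was sequenced from bone marrow cells of female mice aged 10 to 12 weeks, expanded for 72 hours in 40 ng/mL mCSF, the macrophage growth factor. STING-deficient (KO) and wild-type (WT) cells were compared, with 3 mice of each genotype and 1 library per mouse and day, 24 libraries in all. KO and WT cells of day 0 had received no RANKL, the cytokine that drives osteoclast formation. KO and WT cells of days 2, 3 and 4 had been plated at 25000 per well with 10 ng/mL RANKL and 20 ng/mL mCSF, and the wells of a mouse were pooled. The sources used here do not describe the STING allele or the strain. RANKL, the lower mCSF, replating and time in culture changed together, so their effects cannot be told apart. STING is the adaptor through which cytosolic DNA sensing leads to type I interferon, and the comparison asks whether its loss alters osteoclast differentiation.

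Solute carriers are membrane proteins that move sugars, amino acids, ions, metals, vitamins and metabolites across the plasma membrane and the membranes of organelles. Families are numbered by sequence kinship, and members of 1 family often carry related substrates. Osteoclasts are large fused cells of the macrophage lineage that acidify the bone surface, rely heavily on mitochondria and take up much iron, while macrophages export iron and strip metals from phagosomes.

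The labelled cell type was checked against marker genes. All 10 osteoclast markers were in the table, and their summed level was 45386 to 50119 FPKM in KO and 41504 to 48215 FPKM in WT cells at day 4, against 69.4 to 179 FPKM in KO and 104 to 153 FPKM in WT cells at day 0. Neutrophil markers (11 of 14 in the table) summed to 126 to 139 FPKM in KO and 74.8 to 163 FPKM in WT cells at day 4, against 7597 to 13083 FPKM in KO and 5962 to 16161 FPKM in WT cells at day 0. B cell markers (7 of 8) summed to 49.6 to 126 FPKM in KO and 26.1 to 97.0 FPKM in WT cells at day 0 and stayed below 1 FPKM afterwards. Macrophage markers (10 of 12) summed to 3308 to 4201 FPKM in KO and 3500 to 4011 FPKM in WT cells at day 4, against 4697 to 5582 FPKM in KO and 4769 to 5986 FPKM in WT cells at day 0, with 1755 to 2195 FPKM at day 2 over both genotypes. Most of the day 4 sum was Cd68 and Csf1r, which were higher at day 4 than at day 0 in every library, while 7 of the 10 markers were lower in every library. Among these 7, C1qb had 120, 226 and 210 FPKM in KO and 92.8, 257 and 297 FPKM in WT cells at day 4, against 1349 to 1852 FPKM in KO and 1675 to 2221 FPKM in WT cells at day 0, and Fcgr1 had at most 1.63 FPKM at day 4, against at least 49.0 FPKM at day 0. The part of these other cells in the falls described here was not tested, and in bulk RNA fewer cells of a type and less RNA per cell cannot be told apart. Tmem173, the table's symbol for the STING gene, averaged 4.84 FPKM in KO and 25.2 FPKM in WT cells at day 0. It averaged 3.49 FPKM in KO and 6.26 FPKM in WT cells at day 2, and 3.58 FPKM in KO and 4.43 FPKM in WT cells at day 3. At day 4 it averaged 2.79 FPKM in KO and 4.44 FPKM in WT cells, so its RNA differed far less between genotypes under RANKL than at day 0. The WT day 3 library of mouse 531 had steps between low values 1.44 times as coarse as those of its group, which goes with fewer reads. Libraries of a group are given in the order of mice 481, 528 and 532 for KO and 480, 529 and 531 for WT.

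More of the tested solute carrier genes rose than fell over the RANKL course, and their summed level went up. At day 4, 84 of 171 members were higher and 64 lower than at day 0 in KO cells, and 86 were higher and 62 lower in WT cells (limma on log2(FPKM + 1), Benjamini-Hochberg adjusted p below 0.05 over 10081 genes). Called members made up 86.5% in each genotype, where 79.4% of all genes tested were called in KO cells and 81.9% in WT cells. Most genes tested were thus called, but how the genes of the deposited table were selected is not known. These shares therefore hold for that table only. By direction, 49.1% of members rose and 37.4% fell in KO cells, beside 38.6% and 40.8% of all genes, and 50.3% rose and 36.3% fell in WT cells, beside 39.2% and 42.7% of all genes. The median log2 difference of the members was 0.27 in KO cells and 0.32 in WT cells, beside -0.05 and -0.07 for all genes. Summed over the 186 members, the level was 6277 to 6360 FPKM in KO and 5888 to 6543 FPKM in WT cells at day 4, against 4715 to 4831 FPKM in KO and 4860 to 4972 FPKM in WT cells at day 0. The share of the whole table's summed FPKM was 1.19% to 1.21% in KO and 1.13% to 1.27% in WT cells at day 4, against 0.722% to 0.842% in KO and 0.673% to 0.788% in WT cells at day 0.

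The first 2 days held the largest count of calls between neighbouring days. At day 2 against day 0, 77 members rose and 60 fell in KO cells, where 37.1% of all genes rose and 36.5% fell (73.6% called). In WT cells 76 members rose and 58 fell, where 38.5% of all genes rose and 37.5% fell (76.0% called). At day 3 against day 0, 88 members rose and 58 fell in KO cells, where 38.9% of all genes rose and 39.5% fell (78.4% called). In WT cells 88 rose and 61 fell, where 40.4% of all genes rose and 41.6% fell (81.9% called). From day 2 to day 3, 55 members rose and 28 fell in KO cells, where 23.6% of all genes rose and 20.3% fell (43.9% called). In WT cells 62 rose and 32 fell over that step, where 24.9% of all genes rose and 24.2% fell (49.1% called). From day 3 to day 4, 46 rose and 25 fell in KO cells, where 18.2% of all genes rose and 17.6% fell (35.8% called). In WT cells 45 rose and 25 fell, where 19.0% of all genes rose and 19.8% fell (38.8% called). With equal weights for all days the last step held 38 calls in KO and 39 in WT cells. Without mouse 481 it held 44 calls in KO cells, and without mouse 528 it held 42. The shares of all genes called under these settings were not recorded. The highest group mean fell on day 0 for 66 members, on day 2 for 27, on day 3 for 24 and on day 4 for 54 in KO cells, and on the same days for 63, 27, 27 and 54 members in WT cells. This split was not made over all genes, so it is not shown to be particular to the members.

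**Figure D1:**
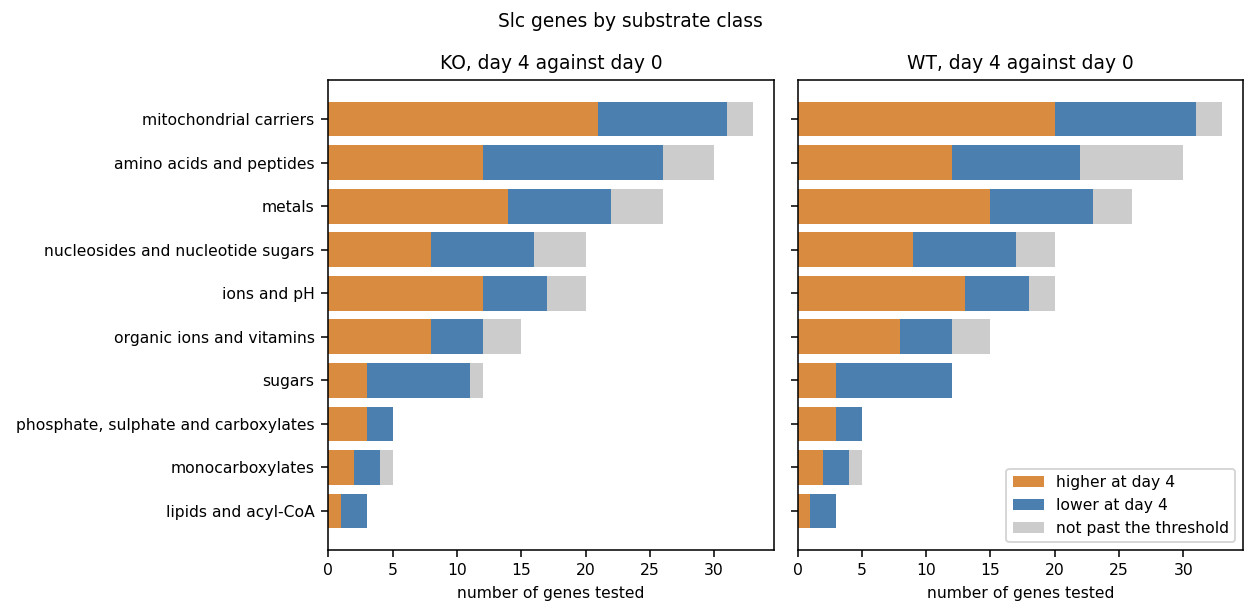
Number of tested solute carrier genes, excluding members that are not carriers, that were higher at day 4 than at day 0 (orange), lower (blue) or not past the threshold of adjusted p 0.05 (grey), by substrate class, in KO (left) and WT cells (right). Mitochondrial carriers, metals and ion carriers held more rises than falls, while among sugar carriers 8 fell in KO and 9 in WT cells.

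Promoters of 4 members are shown for the letters they hold, since each stands for a course described here. Slc37a2 and Slc6a17 are among the 12 largest rises, Slc25a1 among the 12 largest falls, and Slc9a9 fell first and rose later. Each sequence is the 250 bases before the gene start in RefSeq (GRCm38.p6), on the strand of the gene, with matched letters in capitals: TGANTCA (the AP-1 site, bound by Fos and Jun proteins), GAGGAA (the core bound by PU.1, given as TTCCTC on the other strand), CACGTG (an E-box, bound by MiT and Myc family proteins) and TGATGNAA (a composite of C/EBP and ATF proteins). No matches overlapped in these 4.
Slc37a2, chr9:37255739-37255988, minus strand: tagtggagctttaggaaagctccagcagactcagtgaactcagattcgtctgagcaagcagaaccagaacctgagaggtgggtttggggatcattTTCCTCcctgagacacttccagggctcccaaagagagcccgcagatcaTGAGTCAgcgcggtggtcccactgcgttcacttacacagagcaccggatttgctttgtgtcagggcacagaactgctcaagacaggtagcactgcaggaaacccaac
Slc6a17, chr3:107518019-107518268, minus strand: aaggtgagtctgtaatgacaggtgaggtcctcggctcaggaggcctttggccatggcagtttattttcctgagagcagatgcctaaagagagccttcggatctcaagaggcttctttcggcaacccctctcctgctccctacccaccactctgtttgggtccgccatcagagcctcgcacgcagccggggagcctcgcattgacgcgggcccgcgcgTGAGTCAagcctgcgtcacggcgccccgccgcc
Slc9a9, chr9:94669642-94669891, plus strand: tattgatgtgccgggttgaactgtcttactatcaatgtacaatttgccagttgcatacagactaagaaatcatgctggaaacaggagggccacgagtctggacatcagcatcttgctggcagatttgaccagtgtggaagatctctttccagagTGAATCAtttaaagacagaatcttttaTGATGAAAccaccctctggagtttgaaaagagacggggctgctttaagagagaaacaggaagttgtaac
Slc25a1, chr16:17928220-17928469, minus strand: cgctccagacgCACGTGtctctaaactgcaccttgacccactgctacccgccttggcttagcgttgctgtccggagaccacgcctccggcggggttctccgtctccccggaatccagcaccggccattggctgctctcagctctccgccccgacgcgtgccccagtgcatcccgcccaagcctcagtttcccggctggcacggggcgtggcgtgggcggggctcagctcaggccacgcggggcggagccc
The first 3 hold an AP-1 match and the fourth an E-box. Being shown for their letters, they do not stand for the other members. Among the largest rises, Slc45a3, Slc44a1, Slc39a13 and Slc4a7 held none of these letters in the same window. Among the largest falls, Slc9a3r1, Slc46a3, Slc16a3 and Slc2a6 held none. Over windows of 250 bases before to 50 after the start, searched on both strands, AP-1 letters were found in 7.81% of 32851 RefSeq promoters. By gene, only members with a promoter in RefSeq were counted, 129 of those tested. For these shares all genes means 27025 RefSeq genes with a promoter, whether or not they were in the expression table. AP-1 letters were found in 11.1% of 63 such members that rose in WT cells at day 4 and 6.52% of 46 that fell. They were found in 9.3% of the 129 and 8.97% of all genes. The E-box was in 17.5% of the members that rose, 28.3% of those that fell, 19.4% of the 129 and 8.09% of all genes. No share was computed over the genes tested here, so these shares are not set against expressed genes. GAGGAA was in 25.4% of the members that rose, 23.9% of those that fell and 31.3% of all genes, and TGATGNAA in 0% of those that rose, 6.52% of those that fell and 4.51% of all genes. These matches describe letters and show no binding.

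The counts by class of carrier that follow are for day 4 against day 0, where 38.6% of all genes tested rose and 40.8% fell in KO cells and 39.2% rose and 42.7% fell in WT cells, and no class was tested against that background. Among the 12 sugar carriers tested, 3 rose and 8 fell in KO cells, and 3 rose and 9 fell in WT cells. Slc45a3, a proton-coupled sugar carrier known from prostate epithelium, had 34.1, 32.2 and 35.0 FPKM in KO and 38.7, 32.4 and 29.2 FPKM in WT cells at day 4, against 0.691, 0.614 and 0.409 FPKM in KO and 0.331, 0.520 and 0.602 FPKM in WT cells at day 0. All day 4 libraries lay far above all day 0 libraries. The log2(FPKM + 1) scale makes changes of low genes look smaller, and on it the difference was 4.47 ± 0.19 (SE) in KO cells (limma, adjusted p = 3.22e-14) and 4.53 ± 0.19 in WT cells (limma, adjusted p = 2.72e-14), the largest rise of any tested member in both genotypes. Of its exon bases, 13.5% lie in the overlapping gene model Gm29103 of the same strand.

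Slc37a2, a sugar-phosphate carrier of endoplasmic reticulum kinship that mouse osteoclasts carry on their secretory lysosomes, was already plentiful before RANKL. It had 610, 649 and 627 FPKM in KO and 692, 618 and 549 FPKM in WT cells at day 4, against 80.2, 57.1 and 54.6 FPKM in KO and 81.7, 66.1 and 57.3 FPKM in WT cells at day 0. Its level climbed at every step, with means at days 2, 3 and 4 of 293, 483 and 629 FPKM in KO cells and 269, 468 and 620 FPKM in WT cells. Each step passed the threshold in both genotypes, the last by 0.38 ± 0.104 in KO cells (limma, adjusted p = 0.00754) and 0.40 ± 0.104 in WT cells (limma, adjusted p = 0.00473). Slc5a3, the sodium-coupled myo-inositol carrier, rose by 2.11 ± 0.37 in KO cells (limma, adjusted p = 3.10e-05) and by 2.11 ± 0.37 in WT cells (limma, adjusted p = 2.82e-05). Of its exon bases, 1.46% are shared with Mrps6.

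All 4 tested members of family 2, the family of facilitative hexose carriers, fell in both genotypes. Slc2a1 of that family was left out by the rule, so the family as a whole is not described. Slc2a3, the high-affinity glucose carrier GLUT3, had 0.833, 0.396 and 0.389 FPKM in KO and 0.674, 0.534 and 0.439 FPKM in WT cells at day 4, against 7.86, 5.19 and 6.21 FPKM in KO and 6.73, 5.75 and 4.75 FPKM in WT cells at day 0. The groups of day 4 and day 0 did not overlap, and the difference was -2.27 ± 0.173 in KO cells (limma, adjusted p = 2.98e-10) and -2.12 ± 0.173 in WT cells (limma, adjusted p = 8.75e-10). Slc2a6 (GLUT6), a hexose carrier of lysosomal membranes, had a log2 difference of -1.46 in KO and -1.38 in WT cells (limma, adjusted p = 2.67e-05 and 4.60e-05), lowest at day 2 and partly regained by day 4. Slc2a9, a urate carrier, had a difference of -1.29 in KO and -1.33 in WT cells (limma, adjusted p = 8.31e-09 and 5.05e-09). Slc45a4, of the same family as Slc45a3, went the other way from it, at -1.46 in KO and -1.30 in WT cells (limma, adjusted p = 4.25e-10 and 2.62e-09).

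Metal carriers included both strong rises and strong falls. Of 26 tested, 14 rose and 8 fell in KO cells, and 15 rose and 8 fell in WT cells. Slc40a1 is ferroportin, the sole known exporter of iron from cells. It had 9.59, 17.3 and 16.9 FPKM in KO and 9.59, 24.2 and 18.7 FPKM in WT cells at day 4, against 27.4, 120 and 149 FPKM in KO and 41.4, 121 and 116 FPKM in WT cells at day 0. The 2 low day 0 values came from mice 481 and 480, and they still lay above all day 4 values. The difference was -2.41 ± 0.503 in KO cells (limma, adjusted p = 0.000210) and -2.28 ± 0.503 in WT cells (limma, adjusted p = 0.000339). From day 3 to day 4 it rose again, by 1.17 in KO and 1.35 in WT cells (limma, adjusted p = 0.00559 and 0.00166).

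Slc11a1 (NRAMP1) pumps iron and manganese out of phagosomes in macrophages and neutrophils. It had 67.5, 62.3 and 59.2 FPKM in KO and 54.8, 78.0 and 75.5 FPKM in WT cells at day 4, against 363, 256 and 368 FPKM in KO and 364, 306 and 243 FPKM in WT cells at day 0. Its kin Slc11a2 (DMT1) brings iron from endosomes into the cytosol after transferrin uptake. It had 54.7, 57.2 and 57.1 FPKM in KO and 57.0, 50.7 and 55.4 FPKM in WT cells at day 4, against 19.9, 19.4 and 18.6 FPKM in KO and 26.9, 20.8 and 19.1 FPKM in WT cells at day 0. The 2 genes of the family thus moved in opposite directions, Slc11a1 by -2.35 ± 0.187 in KO cells (limma, adjusted p = 5.34e-10) and -2.11 ± 0.187 in WT cells (limma, adjusted p = 2.68e-09), and Slc11a2 by 1.50 ± 0.0998 in KO cells (limma, adjusted p = 3.36e-11) and 1.26 ± 0.0998 in WT cells (limma, adjusted p = 5.14e-10). Slc48a1, the haem carrier HRG1 of phagolysosomes, had a difference of -1.27 in KO and -1.16 in WT cells (limma, adjusted p = 1.25e-09 and 4.62e-09).

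Zinc importers of family 39 were likewise split. Slc39a13 (ZIP13), which releases zinc from vesicles and the Golgi, had 120, 127 and 138 FPKM in KO and 131, 114 and 123 FPKM in WT cells at day 4, against 15.1, 17.1 and 16.2 FPKM in KO and 17.1, 14.6 and 18.1 FPKM in WT cells at day 0. Its difference was 2.91 ± 0.109 in KO cells (limma, adjusted p = 3.67e-15) and 2.81 ± 0.109 in WT cells (limma, adjusted p = 7.23e-15), the smallest adjusted p of any member in each genotype. Slc39a1 (ZIP1), a zinc importer of the plasma membrane, averaged 201 ± 14.3 FPKM in KO and 185 ± 6.56 FPKM in WT cells at day 4, against 58.4 ± 4.12 FPKM in KO and 69.4 ± 5.19 FPKM in WT cells at day 0 (SD, n = 3 mice each). A pseudogene, Slc39a1-ps, is 97.7% identical to it over 973 bases, and the authors' counting could split reads between them. Slc39a8 (ZIP8) had a difference of -1.20 in KO and -1.12 in WT cells (limma, adjusted p = 0.000246 and 0.000439). Slc39a14 (ZIP14) was highest at day 2, at 8.93 FPKM in KO and 8.69 FPKM in WT cells, and had 5.79 FPKM in KO and 5.56 FPKM in WT cells at day 4, against 3.33 FPKM in KO and 2.77 FPKM in WT cells at day 0.

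Slc30a1 (ZnT1), which exports zinc from the cell, averaged 20.5 FPKM in KO and 20.1 FPKM in WT cells at day 4, against 7.001 FPKM in KO and 8.70 FPKM in WT cells at day 0. The difference was 1.43 ± 0.131 in KO cells (limma, adjusted p = 4.44e-09) and 1.12 ± 0.131 in WT cells (limma, adjusted p = 1.51e-07). Slc31a2 (CTR2), a copper carrier of late endosomes and lysosomes, rose late. Its difference at day 2 was 0.23 in KO and 0.09 in WT cells (limma, adjusted p = 0.220 and 0.647), and from day 2 to day 3 it rose by 1.01 in KO and 0.97 in WT cells (limma, adjusted p = 2.38e-07 and 3.96e-07).

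Of 30 amino acid and peptide carriers tested, 12 rose and 14 fell in KO cells, and 12 rose, 10 fell and 8 were not called in WT cells. Slc1a5 (ASCT2), the main glutamine importer, had 163, 158 and 152 FPKM in KO and 181, 132 and 141 FPKM in WT cells at day 4, against 46.8, 36.0 and 34.2 FPKM in KO and 34.5, 36.1 and 33.0 FPKM in WT cells at day 0. Slc6a8, the creatine importer, had 141, 145 and 159 FPKM in KO and 155, 137 and 134 FPKM in WT cells at day 4, against 36.2, 23.9 and 29.4 FPKM in KO and 35.9, 29.3 and 21.4 FPKM in WT cells at day 0. Neither gene had a day 4 library below a day 0 library. The differences of Slc1a5 were 2.00 ± 0.175 in KO cells (limma, adjusted p = 2.33e-09) and 2.09 ± 0.175 in WT cells (limma, adjusted p = 1.28e-09), and those of Slc6a8 were 2.29 ± 0.147 in KO cells (limma, adjusted p = 1.88e-11) and 2.28 ± 0.147 in WT cells (limma, adjusted p = 2.16e-11).

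The light and heavy chains of the large neutral amino acid exchangers went down. Slc3a2 (CD98 heavy chain), the shared partner of family 7 light chains, averaged 81.7 FPKM in KO and 80.1 FPKM in WT cells at day 4, against 139 FPKM in KO and 142 FPKM in WT cells at day 0. Its difference was -0.76 ± 0.0872 in KO cells (limma, adjusted p = 1.22e-07) and -0.82 ± 0.0872 in WT cells (limma, adjusted p = 4.35e-08). Slc7a5 (LAT1), the leucine-importing light chain, had 7.37, 4.96 and 4.28 FPKM in KO and 6.56, 3.76 and 5.01 FPKM in WT cells at day 4, against 9.44, 16.6 and 19.5 FPKM in KO and 3.49, 18.1 and 18.6 FPKM in WT cells at day 0. In WT cells the day 0 library of mouse 480 lay below every WT day 4 library, so the groups overlapped. The WT difference was -0.99 ± 0.345 (limma, adjusted p = 0.0126), but -0.48 without mouse 529 (limma, adjusted p = 0.304), -0.63 without mouse 531 (limma, adjusted p = 0.207) and -1.86 without mouse 480 (limma, adjusted p = 1.22e-05). The KO difference was -1.28 ± 0.345 (limma, adjusted p = 0.00211) and -0.94 without mouse 532 (limma, adjusted p = 0.0607). The cystine importer Slc7a11 (xCT) had a difference of -0.38 in KO and -0.36 in WT cells (limma, adjusted p = 0.0474 and 0.0573), at levels no higher than 2.40 FPKM in any library. With the mouse as a block the WT value passed (limma, adjusted p = 0.0476), and without mouse 529 it was -0.60 (limma, adjusted p = 0.0154). Without any 1 KO mouse the KO value lay between -0.46 and -0.24 and missed the threshold (limma, adjusted p = 0.0768 to 0.317). A stretch of 373 bases of its transcript is 96.2% identical to Tuba1b and 96.0% to Tuba1a, tubulin genes, so its low values are uncertain.

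Several carriers of family 6, the neurotransmitter carriers, rose from very low levels. Slc6a17, a carrier of neutral amino acids known from synaptic vesicles, had 3.49, 3.22 and 3.92 FPKM in KO and 4.64, 2.99 and 2.80 FPKM in WT cells at day 4, against 0.0568, 0.0140 and 0.0135 FPKM in KO and 0.00809, 0.0138 and 0.0516 FPKM in WT cells at day 0. It was highest at day 3, with 6.30 FPKM in KO and 6.27 FPKM in WT cells, and fell by 0.68 in KO and 0.71 in WT cells from day 3 to day 4 (limma, adjusted p = 0.000604 and 0.000340). Slc6a12 (BGT1), which imports betaine and GABA, had 17.0, 4.51 and 8.66 FPKM in KO and 17.2, 15.0 and 14.5 FPKM in WT cells at day 4, against 6.15, 0.381 and 0.315 FPKM in KO and 11.5, 0.286 and 0.458 FPKM in WT cells at day 0. Its high day 0 values were again those of mice 481 and 480, and in KO cells the 2 days overlapped. The difference was 2.07 ± 0.648 in KO cells (limma, adjusted p = 0.00657) and 2.53 ± 0.648 in WT cells (limma, adjusted p = 0.00135). Without mouse 532 the KO value was 1.66 (limma, adjusted p = 0.0891). Slc6a6, the taurine importer, was second to Slc6a8 in the family at day 4, with 125 FPKM in KO and 130 FPKM in WT cells at day 4, against 112 FPKM in KO and 99.8 FPKM in WT cells at day 0, and its difference was 0.20 in KO and 0.42 in WT cells (limma, adjusted p = 0.402 and 0.0753). With the mouse as a block the WT value of Slc6a6 passed (limma, adjusted p = 0.0304), and it was 0.63 without mouse 480 (limma, adjusted p = 0.0325).

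Peptide carriers of the endolysosome fell. Slc15a3 (PHT2) had 5.86, 7.77 and 6.70 FPKM in KO and 5.20, 8.97 and 8.38 FPKM in WT cells at day 4, against 58.6, 62.2 and 55.9 FPKM in KO and 94.0, 65.5 and 62.3 FPKM in WT cells at day 0. This was the largest fall of any tested member, -2.95 ± 0.234 in KO cells (limma, adjusted p = 5.03e-10) and -3.14 ± 0.234 in WT cells (limma, adjusted p = 1.97e-10). It shares 1541 exon bases, 28.1% of its own, with Tmem132a on the opposite strand, whose own mean was 1.90 FPKM in KO cells at day 4 against 6.72 FPKM at day 0, and strandedness is not given in the sources used here. Slc15a4 (PHT1), needed for signalling by endosomal Toll-like receptors to type I interferon, had a difference of -0.38 in KO and -0.69 in WT cells (limma, adjusted p = 0.00441 and 1.10e-05), and the KO value was -0.29 without mouse 481 (limma, adjusted p = 0.0807). Of the other amino acid carriers, Slc36a4 rose by 1.89 in KO and 2.29 in WT cells (limma, adjusted p = 5.20e-06 and 3.78e-07). Slc38a9, the lysosomal arginine sensor of the mTORC1 pathway, rose by 0.51 in KO and 0.46 in WT cells (limma, adjusted p = 0.00178 and 0.00334). Slc38a6 rose by 1.96 in KO and 1.86 in WT cells (limma, adjusted p = 6.19e-09 and 1.31e-08), but its transcript is over 95% identical in parts to 25 other genes, among them D10Wsu102e (95.4% over 3185 bases), so its reads are uncertain.

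**Figure D2:**
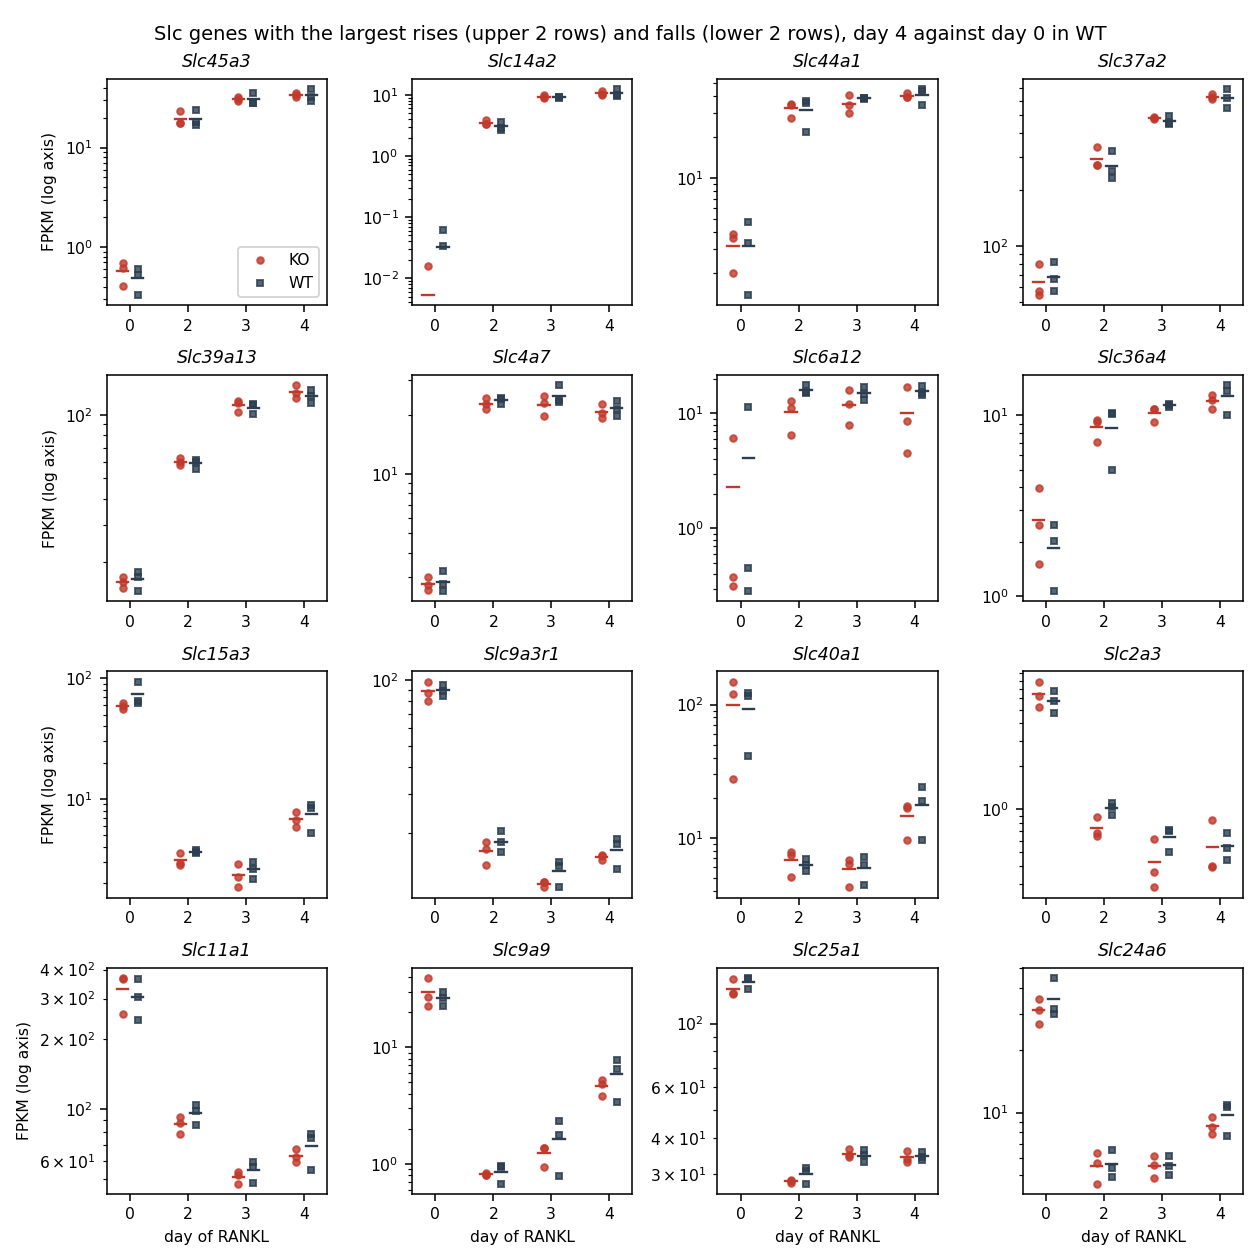
FPKM in each library (points, logarithmic axis, different for each gene) and group mean (bars) by day of RANKL for the 8 largest rises and 8 largest falls among members in WT cells, KO left of WT at each day. Much of the change was present at day 2, but Slc14a2 and Slc37a2 rose further and Slc11a1 fell further from day 2 to day 3. Slc40a1, Slc15a3 and Slc9a9 turned upward at day 4. Values listed at 0 (Slc14a2 at day 0, 2 KO and 1 WT library) have no place on the logarithmic axis.

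Of 20 ion and pH carriers tested, 12 were higher and 5 lower in KO cells and 13 were higher and 5 lower in WT cells, where 38.6% of all genes rose and 40.8% fell in KO cells and 39.2% rose and 42.7% fell in WT cells. Slc4a7 (NBCn1), which brings sodium and bicarbonate into the cell, had 22.6, 20.4 and 19.3 FPKM in KO and 21.4, 23.6 and 19.7 FPKM in WT cells at day 4, against 2.59, 2.99 and 2.73 FPKM in KO and 2.55, 3.22 and 2.75 FPKM in WT cells at day 0. The level of day 2 was already as high, at 22.8 FPKM in KO and 23.7 FPKM in WT cells. The day 4 difference was 2.53 ± 0.142 in KO cells (limma, adjusted p = 2.22e-12) and 2.56 ± 0.142 in WT cells (limma, adjusted p = 2.04e-12). Slc12a5 (KCC2), a potassium-chloride carrier known from neurons, had 3.76, 4.13 and 4.08 FPKM in KO and 4.82, 3.85 and 3.53 FPKM in WT cells at day 4, against values of 0.107 FPKM or less in every day 0 library. It rose at each step in both genotypes, unlike Slc4a7.

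Endosomal and mitochondrial ion exchangers went the other way. Slc9a9 (NHE9), a sodium-proton exchanger of late endosomes, had 0.829, 0.801 and 0.804 FPKM in KO and 0.676, 0.946 and 0.945 FPKM in WT cells at day 2, against 22.5, 26.9 and 39.4 FPKM in KO and 22.8, 30.1 and 26.6 FPKM in WT cells at day 0. It then rose to 3.81, 4.84 and 5.26 FPKM in KO and 3.36, 7.79 and 6.56 FPKM in WT cells at day 4. The day 2 difference was -4.04 ± 0.342 in KO cells (limma, adjusted p = 1.78e-09) and -3.88 ± 0.342 in WT cells (limma, adjusted p = 3.04e-09), and the rise from day 3 to day 4 was 1.34 in KO and 1.38 in WT cells (limma, adjusted p = 6.89e-05 and 3.85e-05). Slc9a5 (NHE5), a sodium-proton exchanger known from neurons, rose by 1.39 in KO and 1.58 in WT cells (limma, adjusted p = 1.15e-05 and 2.12e-06). Slc9a3r1 (NHERF1), a scaffold for sodium-proton exchangers and not a carrier, had a difference of -2.43 in KO and -2.36 in WT cells (limma, adjusted p = 4.86e-11 and 8.12e-11). Slc24a6 (NCLX), which takes calcium out of mitochondria, had a difference of -1.75 in KO and -1.77 in WT cells (limma, adjusted p = 1.44e-07 and 1.22e-07). Slc26a11, an anion carrier of lysosomes and the plasma membrane, had a difference of -0.99 in KO and -1.11 in WT cells (limma, adjusted p = 0.000144 and 3.76e-05), after a deeper low at day 2.

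Mitochondrial carriers (family 25) were the largest family, with 33 tested. In KO cells 21 rose and 10 fell, and in WT cells 20 rose and 11 fell, with a median log2 difference of 0.50 in KO and 0.38 in WT cells. FPKM is scaled by length, so levels may be set side by side between genes. Averaged over all libraries the 3 highest members were Slc25a3, the phosphate carrier, and Slc25a5 and Slc25a4, the ADP/ATP exchangers ANT2 and ANT1. At day 4 their means were 660, 631 and 543 FPKM in KO cells, and 630, 598 and 517 FPKM in WT cells. On that day the mean of Slc37a2 lay above that of Slc25a4 in both genotypes and above that of Slc25a5 in WT cells. Slc25a5 had 627, 640 and 626 FPKM in KO and 623, 558 and 615 FPKM in WT cells at day 4, against 274, 240 and 254 FPKM in KO and 234, 279 and 241 FPKM in WT cells at day 0. Slc25a5 rose by 1.30 in KO and 1.25 in WT cells (limma, adjusted p = 3.29e-10 and 6.07e-10), although 2 near-identical gene models, one of them Gm5560 (98.3% over 887 bases), could take some of its reads. Slc25a4 rose by 1.31 in KO and 1.15 in WT cells (limma, adjusted p = 1.97e-08 and 1.28e-07).

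Slc25a3 differed by 0.52 in KO and 0.22 in WT cells (limma, adjusted p = 0.00429 and 0.183), and the difference between the genotypes' changes did not pass. Without mouse 481 the KO value was 0.44 (limma, adjusted p = 0.0585). Slc25a39, which brings glutathione into mitochondria, rose by 1.11 in KO and 0.92 in WT cells (limma, adjusted p = 2.19e-08 and 3.22e-07). Slc25a11, the oxoglutarate-malate exchanger, rose by 0.50 in KO cells (limma, adjusted p = 0.000639), and its WT value of 0.29 (limma, adjusted p = 0.0316) missed the threshold without any 1 WT mouse (limma, adjusted p = 0.0601 to 0.0998) and with median scaling (0.24, limma, adjusted p = 0.0861). Slc25a42, which brings coenzyme A into mitochondria, had 5.33, 5.95 and 5.94 FPKM in KO and 6.05, 5.51 and 5.09 FPKM in WT cells at day 4, against 0.467, 0.547 and 0.696 FPKM in KO and 0.549, 0.582 and 0.606 FPKM in WT cells at day 0. It was the largest rise of the family, 2.10 ± 0.115 in KO cells (limma, adjusted p = 1.51e-12) and 2.05 ± 0.115 in WT cells (limma, adjusted p = 2.52e-12).

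Slc25a1, the citrate exporter that feeds fatty acid and sterol synthesis, was the largest fall of the family. It had 33.9, 33.1 and 36.0 FPKM in KO and 33.4, 34.4 and 35.6 FPKM in WT cells at day 4, against 142, 128 and 126 FPKM in KO and 143, 131 and 144 FPKM in WT cells at day 0. All day 4 libraries lay far under those of day 0 and close to each other. The difference was -1.91 ± 0.0863 in KO cells (limma, adjusted p = 7.38e-14) and -1.98 ± 0.0863 in WT cells (limma, adjusted p = 4.50e-14). It was lowest at day 2, at 28.3 FPKM in KO and 29.9 FPKM in WT cells, and rose by 0.31 in KO and 0.21 in WT cells from day 2 to day 3 (limma, adjusted p = 0.000123 and 0.00351). Slc25a37 (mitoferrin 1), which brings iron into mitochondria and is known from red cell precursors, had a difference of -1.32 in KO and -1.19 in WT cells (limma, adjusted p = 1.73e-09 and 8.88e-09). The 3 erythroid markers in the table, of 10 listed, summed to 13.4 to 17.6 FPKM in KO and 4.75 to 21.7 FPKM in WT cells at day 0 and stayed below 1 FPKM afterwards.

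The lactate carriers Slc16a3 and Slc16a7 exchanged rank. Slc16a3 (MCT4), the lactate exporter of glycolytic cells, had 16.5, 15.2 and 13.1 FPKM in KO and 12.8, 13.8 and 17.4 FPKM in WT cells at day 4, against 34.7, 52.3 and 38.2 FPKM in KO and 32.3, 47.5 and 50.4 FPKM in WT cells at day 0. Slc16a7 (MCT2), a high-affinity importer of lactate and pyruvate, had 25.5, 28.8 and 31.8 FPKM in KO and 28.1, 27.9 and 27.5 FPKM in WT cells at day 4, against 6.04, 7.74 and 9.35 FPKM in KO and 6.29, 9.14 and 6.15 FPKM in WT cells at day 0. In each day 0 library the level of Slc16a3 was above that of Slc16a7, and in each day 4 library it was below. The differences were -1.41 and 1.78 in KO cells (limma, adjusted p = 2.35e-06 for Slc16a3 and 1.57e-09 for Slc16a7), and -1.49 and 1.83 in WT cells (limma, adjusted p = 1.05e-06 for Slc16a3 and 1.05e-09 for Slc16a7). Slc16a1 (MCT1) was highest at day 2, at 13.8 FPKM in KO and 14.5 FPKM in WT cells, and had 5.93 FPKM in KO and 5.38 FPKM in WT cells at day 4, against 6.90 FPKM in KO and 6.25 FPKM in WT cells at day 0. Slc16a13 had a difference of -1.29 in KO and -1.31 in WT cells (limma, adjusted p = 4.87e-09 and 3.87e-09).

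Carriers of choline and urea held 2 of the 3 largest rises after Slc45a3. Slc44a1 (CTL1), a choline importer that supplies phospholipid synthesis, had 39.5, 39.2 and 42.4 FPKM in KO and 45.0, 43.5 and 34.5 FPKM in WT cells at day 4, against 3.89, 2.01 and 3.65 FPKM in KO and 4.72, 3.33 and 1.39 FPKM in WT cells at day 0. Slc14a2, the urea carrier of the kidney medulla, had 10.0, 11.4 and 10.5 FPKM in KO and 12.4, 9.83 and 9.56 FPKM in WT cells at day 4, and at day 0 it was listed at 0 in 3 of 6 libraries and stayed at or under 0.0624 FPKM in the rest. Slc44a1 rose by 3.34 ± 0.268 in KO cells (limma, adjusted p = 6.16e-10) and 3.42 ± 0.268 in WT cells (limma, adjusted p = 4.35e-10). Slc14a2 rose by 3.53 ± 0.137 in KO cells (limma, adjusted p = 7.37e-15) and 3.48 ± 0.137 in WT cells (limma, adjusted p = 9.31e-15). Of the organic ion and vitamin class as a whole, 8 rose and 4 fell of 15 in each genotype. Slc46a3, a carrier of lysosomal membranes, had a difference of -1.75 in KO and -1.67 in WT cells (limma, adjusted p = 1.99e-06 and 3.46e-06). Slc23a2, a vitamin C importer, had a difference of -0.84 in KO and -0.86 in WT cells (limma, adjusted p = 2.23e-06 and 1.43e-06).

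Carriers of nucleosides and nucleotide sugars were balanced, with 8 higher and 8 lower of 20 in KO cells and 9 higher and 8 lower in WT cells. Slc35a3, which brings UDP-N-acetylglucosamine into the Golgi, rose by 1.28 in KO and 1.44 in WT cells (limma, adjusted p = 1.50e-06 and 2.91e-07). Slc35b1, which brings ATP into the endoplasmic reticulum, had a difference of -1.16 in KO and -1.21 in WT cells (limma, adjusted p = 7.27e-08 and 4.15e-08). Slc29a3 (ENT3), the lysosomal nucleoside exporter whose loss in humans causes a histiocytosis, rose by 0.62 in KO and 0.76 in WT cells (limma, adjusted p = 0.0244 and 0.00671), with no call without mouse 528 in KO cells (0.43, limma, adjusted p = 0.183) or without mouse 529 in WT cells (0.66, limma, adjusted p = 0.0701). The phosphate importer Slc20a1 (PiT1) had a difference of -0.42 in KO and -0.37 in WT cells (limma, adjusted p = 0.00358 and 0.00806), with no call without mouse 481 in KO cells (-0.18, limma, adjusted p = 0.207) or without mouse 480 in WT cells (-0.30, limma, adjusted p = 0.0583). Slc27a4 (FATP4), which activates and takes up fatty acids, had a difference of -0.39 in KO and -0.54 in WT cells (limma, adjusted p = 0.000218 and 5.76e-06). Of 18 members listed for known roles in macrophages or osteoclasts, a list drawn up with earlier results of these data known, 8 rose and 9 fell in KO cells and 8 rose and 8 fell in WT cells, beside the shares of all genes given above (38.6% and 40.8% in KO, 39.2% and 42.7% in WT cells).

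Further members are described here that were chosen after their values were seen. Slc29a1 (ENT1), the main nucleoside carrier of the plasma membrane, had 123, 138 and 137 FPKM in KO and 133, 121 and 141 FPKM in WT cells at day 4, against 40.2, 37.7 and 40.2 FPKM in KO and 42.6, 40.2 and 41.4 FPKM in WT cells at day 0. It climbed day by day, and rose by 1.73 in KO and 1.64 in WT cells (limma, adjusted p = 4.42e-11 and 9.97e-11). Slc20a2 (PiT2) moved opposite to its kin Slc20a1, with 1.73 in KO and 1.98 in WT cells (limma, adjusted p = 3.04e-10 and 3.89e-11). Slc12a7 (KCC4), a potassium-chloride carrier, rose by 1.94 in KO and 2.00 in WT cells (limma, adjusted p = 1.33e-09 and 8.84e-10). Slc46a1 (PCFT), the proton-coupled folate importer, rose by 1.75 in KO and 1.43 in WT cells (limma, adjusted p = 2.74e-10 and 5.49e-09), while the folate importer Slc19a1, which also imports the STING ligand cGAMP in human cells, was highest at day 2. Slc7a8 (LAT2), a light chain like LAT1, had a difference of -1.59 in KO and -1.17 in WT cells (limma, adjusted p = 2.91e-05 and 0.000666).

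Several members were highest at day 2 and others turned upward at day 4. Slc6a4, the serotonin importer, had 10.8, 11.1 and 13.3 FPKM in KO and 11.2, 14.6 and 13.1 FPKM in WT cells at day 2, against 0.375, 0.202 and 0.179 FPKM in KO and 0.408, 0.182 and 0.0354 FPKM in WT cells at day 0. The rise was 3.35 ± 0.312 in KO cells (limma, adjusted p = 7.76e-09) and 3.54 ± 0.312 in WT cells (limma, adjusted p = 3.17e-09). It then fell by 0.98 in KO and 0.99 in WT cells from day 2 to day 3 and by 1.24 in KO and 1.14 in WT cells from day 3 to day 4, all past the threshold, and had 1.83 FPKM in KO and 2.26 FPKM in WT cells at day 4. Slc7a5 reached 20.5 FPKM in KO and 22.0 FPKM in WT cells at day 2 and fell by 1.05 in KO and 1.09 in WT cells to day 3 (limma, adjusted p = 0.000551 and 0.000350). Slc6a9, a glycine importer at a low level, had 2.75 FPKM in KO and 3.11 FPKM in WT cells at day 2, and 1.47 FPKM in KO and 1.39 FPKM in WT cells at day 3, but 27.8% of its exon bases lie under Ccdc24 on the opposite strand. The turn at day 4 of genes that had fallen was shared by Slc9a9, Slc40a1, Slc15a3 and Slc26a11, the 4 largest rises from day 3 to day 4 in WT cells. Slc15a3 rose by 1.23 in KO and 1.22 in WT cells over that step (limma, adjusted p = 3.45e-06 in each), and Slc26a11 by 0.86 in KO and 0.91 in WT cells (limma, adjusted p = 2.87e-05 and 1.32e-05). All 4 stayed below their day 0 level at day 4. The 10 macrophage markers moved with them, each higher in every day 4 library than in every day 3 library of its genotype. C1qb had 120, 226 and 210 FPKM in KO and 92.8, 257 and 297 FPKM in WT cells at day 4, against 30.9, 60.4 and 52.4 FPKM in KO and 27.1, 78.7 and 61.0 FPKM in WT cells at day 3. Mrc1 had 10.7, 15.1 and 14.3 FPKM in KO and 8.89, 21.2 and 15.99 FPKM in WT cells at day 4, against 2.00, 2.90 and 3.07 FPKM in KO and 1.57, 5.06 and 4.23 FPKM in WT cells at day 3. Their part in the turn at day 4 was not tested.

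**Figure D3:**
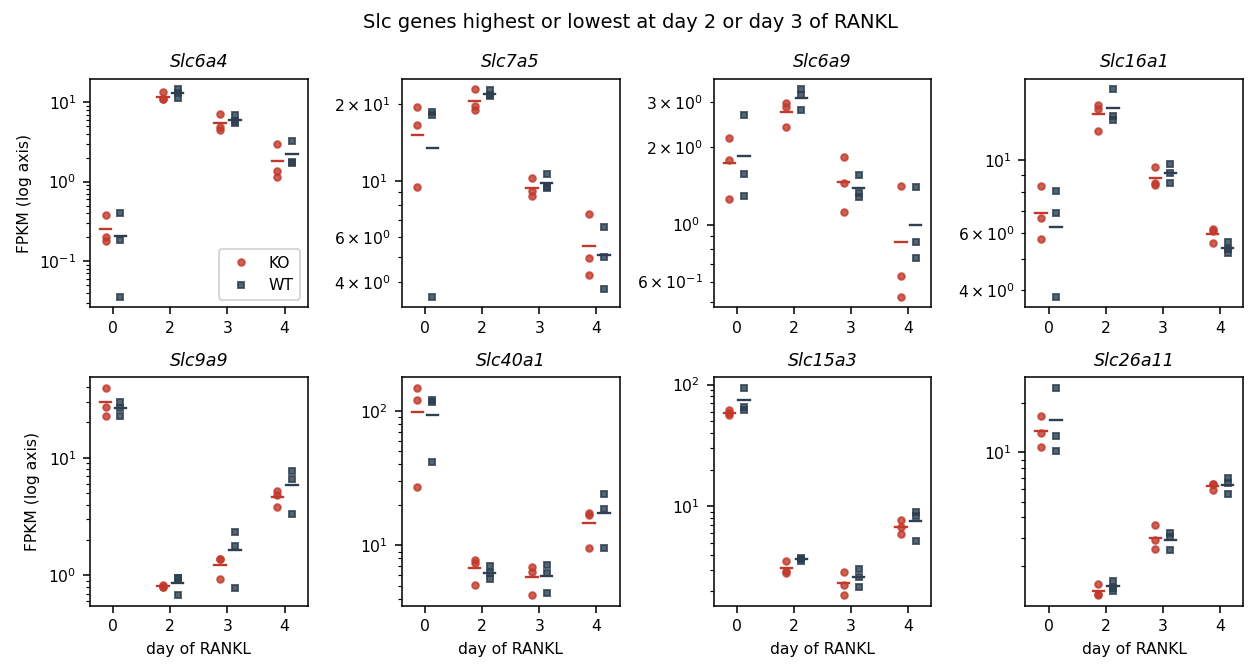
FPKM in each library (points, logarithmic axis, different for each gene) and group mean (bars) by day of RANKL, KO left of WT at each day, for 8 members named for their change from day 2 to day 3 or from day 3 to day 4. The upper 4 were highest at day 2, and the lower 4 were lowest at day 2 or day 3 and rose at day 4.

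No solute carrier gene was called in opposite directions in KO and WT cells over the RANKL course. Across the 171 members, KO and WT log2 differences from day 0 correlated with r = 0.992 at day 2, 0.990 at day 3 and 0.991 at day 4, beside 0.980, 0.976 and 0.983 across all genes tested. The points are genes of the same libraries, so no test is attached. At day 4, 83 members were higher in both genotypes, 59 were lower in both and 0 were called in opposite directions. The same counts were not made over all genes, of which 79.4% were called in KO and 81.9% in WT cells. The agreement is thus not shown to be particular to the members. The largest gaps between the genotypes' changes were 0.49 for Slc7a5 at day 2, 0.56 for Slc7a8 at day 3 and 0.50 for Slc25a30 at day 4 (the last 2 named after their values were seen). The day 0 libraries of these 3 genes were spread, for example from 3.49 to 18.6 FPKM in WT cells for Slc7a5.

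**Figure D4:**
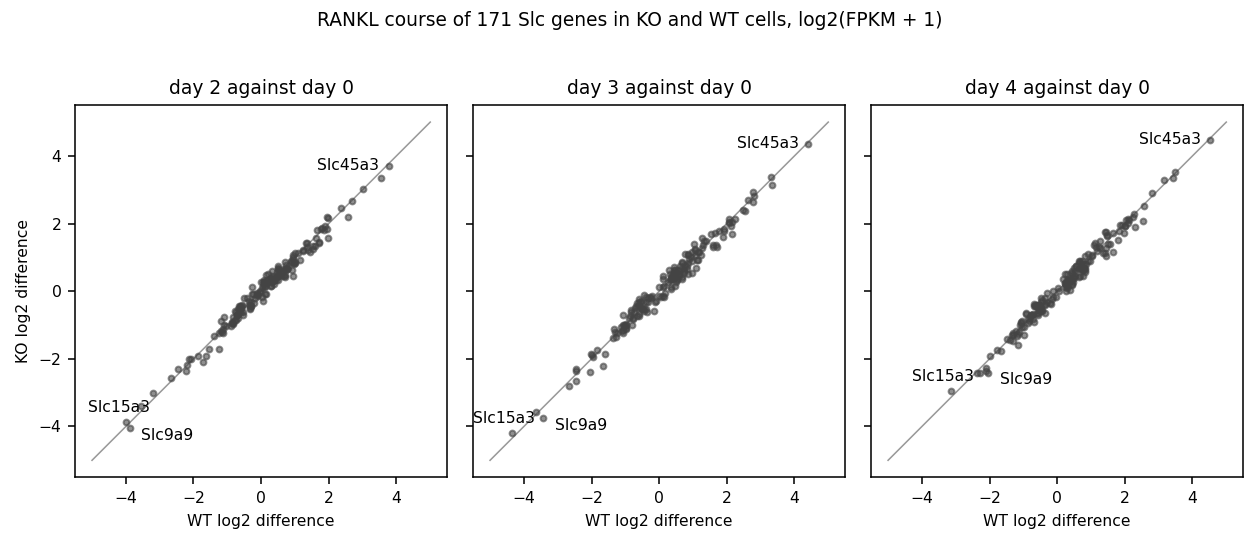
Log2 difference from day 0 of each of the 171 tested members in KO cells (vertical axis) against WT cells (horizontal axis) at days 2, 3 and 4, with the line of equal change. The points follow the line from Slc15a3 and Slc9a9 at the low end to Slc45a3 at the high end.

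Loss of STING called no solute carrier gene at any day. Between KO and WT cells, 0 of 171 members passed at days 0, 2, 3 and 4 (limma, smallest adjusted p of a member 0.934, at day 3), where 0.0992%, 0.0298%, 0.0198% and 0.0298% of all genes were called. At an unadjusted p under 0.05 there were 3, 2, 5 and 2 members on these days. The genotype by day interaction, which sets the KO change against the WT change, also called 0 members at days 2, 3 and 4 (0.0397%, 0.0694% and 0.0496% of all genes). At an unadjusted p under 0.05 the interaction held 0, 2 and 0 members, beside 156, 355 and 145 of all 10081 genes. The 3 KO libraries did not overlap the 3 WT libraries for 8, 10, 11 and 8 members at days 0, 2, 3 and 4, which is 4.68%, 5.85%, 6.43% and 4.68%, beside 5.88%, 3.91%, 7.47% and 3.98% of all genes. The median size of the KO against WT difference was 0.10 at day 0 and 0.05 on each later day on the log2 scale, with a median SE of 0.18 at day 0 and 0.08 to 0.10 later. The median difference was thus smaller than its SE, and differences of that size were not detectable with 3 mice.

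**Figure D5:**
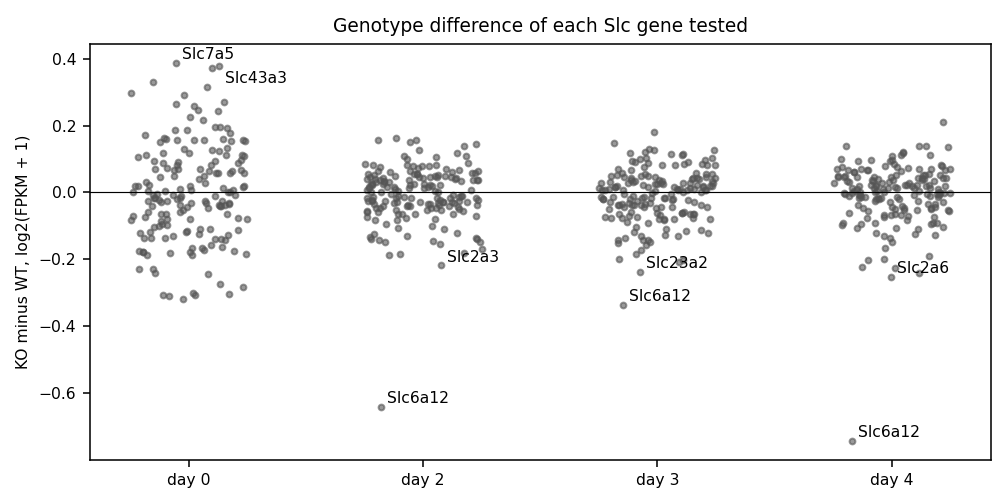
KO minus WT difference of each tested member at days 0, 2, 3 and 4, on the log2(FPKM + 1) scale, with points spread sideways for legibility and the 2 largest differences of each day named. Most points lie within 0.4 of 0, and the lowest points after day 0 belong to Slc6a12, whose KO libraries are far apart.

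The members nearest to a genotype difference were small in size. Slc23a2 had 5.87, 5.77 and 5.97 FPKM in KO and 6.76, 6.92 and 7.66 FPKM in WT cells at day 3, with no overlap and a difference of -0.24 ± 0.0683 (limma, unadjusted p = 0.00221, adjusted p = 0.934). Slc25a46, an outer mitochondrial membrane protein that shapes mitochondria, was lower in KO at each day in its mean, at 24.48, 23.24 and 23.98 FPKM in KO and 27.8, 25.9 and 26.5 FPKM in WT cells at day 3 (difference -0.16, limma, unadjusted p = 0.00908, adjusted p = 0.934). Its day 2 difference was -0.18 (limma, unadjusted p = 0.0108, adjusted p = 1). Slc35a4, a nucleotide sugar carrier of the Golgi, had 41.7, 35.7 and 41.8 FPKM in KO and 32.4, 35.4 and 28.7 FPKM in WT cells at day 0 (difference 0.30, limma, unadjusted p = 0.0489, adjusted p = 1), while at days 2 to 4 its differences were -0.01, -0.02 and 0.05. Slc25a46 and Slc35a4 lie on chromosome 18, as does the STING gene. The other 5 members on that chromosome (Slc12a2, Slc14a2, Slc26a2, Slc27a6 and Slc39a6) had overlapping libraries at each day.

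At day 0 the smallest p belonged to Slc12a9, a kin of the cation-chloride carriers, with 11.6, 12.6 and 10.6 FPKM in KO and 17.4, 12.5 and 14.1 FPKM in WT cells (difference -0.31, limma, unadjusted p = 0.0290, adjusted p = 1). Slc15a4 followed, with 38.0, 33.2 and 31.6 FPKM in KO and 54.3, 38.3 and 37.2 FPKM in WT cells (difference -0.31, limma, unadjusted p = 0.0382, adjusted p = 1). For both, the groups overlapped and the highest WT value came from mouse 480. Slc6a12 had the largest difference of any member, -0.74 ± 0.414 at day 4 (limma, unadjusted p = 0.0875, adjusted p = 1), with its KO libraries between 4.51 and 17.0 FPKM. At the interaction, Slc12a9 was nearest at day 3 (0.37, limma, unadjusted p = 0.0169, adjusted p = 0.906), followed by Slc35d1, a UDP-glucuronic acid carrier of the endoplasmic reticulum (-0.43, limma, unadjusted p = 0.0341, adjusted p = 0.906).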

How the data were processed

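Gene expression was measured by RNA sequencing in 24 samples of 8 groups, and the FPKM values were used as the authors deposited them. Per the submitters' processing notes, HISAT2 2.0.5, Cufflinks 2.2.1 and Cuffdiff were used with build mm10. The deposited values carry the label sig.genes, which may mean that genes were selected on these data. How the table's genes were selected and whether counting used strand is not given in the sources used here. Read depth is unknown, so no counting interval is given, and 0 columns of values went unused. The members and gene lists were chosen with earlier results of these data known.

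The deposited FPKM values were put on a log2 scale with a pseudocount of 1, and the 10081 genes whose mean reached 1 FPKM in any group were fitted with limma 3.58.1 (R 4.3.3) over all 8 groups. Array weights by day (0.355, 1.20, 1.70 and 1.38 for days 0, 2, 3 and 4) were used because the median SD over genes was 0.182 in KO and 0.192 in WT cells at day 0 and at most 0.125 later. P-values were Benjamini-Hochberg adjusted over all genes tested in each of 17 comparisons. The same code was tested on simulated data. The 3 mice of a genotype each gave all 4 days, so the mouse pairs libraries by animal. Deviations of libraries of 1 mouse correlated with a median of 0.261 in KO cells (17 of 18 pairs over 0.1) and 0.136 in WT cells (10 of 18). The fit held no mouse term, and the alternative with the mouse as a block is given at the end. Comparisons with day 0 share the day 0 libraries.

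Members were named by rule: the largest changes without overlap between libraries in WT cells over each interval, the 3 smallest p-values in each genotype comparison, the 10 highest mean levels, members with known roles in macrophages or osteoclasts, and the largest change in each direction within mixed families. The values of 1 member that this rule selects are not reported here. Transcripts were compared with blastn 2.17.0, and gene names, exons and promoters came from RefSeq. Alternatives were a pseudocount of 0.1, no filter, a filter of 5 FPKM, median scaling, equal weights, only the groups compared, the mouse block, neighbouring mouse numbers as a batch, leaving out each mouse, and leaving out the WT day 3 library of mouse 531.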

Additional observations from a re-analysis of the deposited data

How the results depend on the processing

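Of 207 alternative counts of called members, 203 stayed within the limit of 1.5 times set for a change, and the cause of the others was not tested. Only members were counted under the alternatives, so whether the calls over all genes moved alike is not known. For WT day 4 against day 3 the count was 39 (24 higher, 15 lower) with equal weights, and 70 as reported. For KO day 4 against day 3 it was 38 (25 higher, 13 lower) with equal weights, and 71 as reported. Leaving out 1 mouse gave 42 to 49 calls for KO day 4 against day 3, 61 to 71 for KO day 3 against day 2, 122 to 123, 136 to 137 and 131 to 138 for KO days 2, 3 and 4 against day 0, 52 to 58 for WT day 4 against day 3, 75 to 87 for WT day 3 against day 2, and 119 to 126, 137 to 146 and 138 to 143 for WT days 2, 3 and 4 against day 0. Leaving out only the WT day 3 library of mouse 531 gave 132, 147 and 148 for WT days 2, 3 and 4 against day 0, 85 for day 3 against day 2 and 70 for day 4 against day 3. With the mouse as a replicate block the counts were 141, 150 and 151 for KO days 2, 3 and 4 against day 0, 100 for KO day 3 against day 2 and 81 for KO day 4 against day 3, and 138, 152, 155, 107 and 88 for the same WT comparisons. The block changed the calls of Slc6a6 and Slc7a11 in WT cells at day 4 and of no other named gene. Genotype and interaction comparisons held 0 calls under every alternative run. Of 1630 alternative values of named genes, 1602 kept direction and call, 21 lost the call and 6 gained it. The difference of Slc6a6, KO day 4 against day 0, 0.20 as reported (limma, adjusted p = 0.402), turned to -0.0167 without mouse 528 (limma, adjusted p = 0.950) and ranged up to 0.35 over the mice left out. The number of mice and the unknown read depth limit what can be detected.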

Other observations

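Of the carriers named outside the Slc scheme, Nhedc2 and Spns2 had larger rises than any tested Slc gene. Nhedc2, the sodium-proton exchanger NHA2 that RefSeq now names Slc9b2, averaged 329 ± 18.5 FPKM in KO and 317 ± 54.0 FPKM in WT cells at day 4, against 1.03 ± 0.530 FPKM in KO and 1.05 ± 0.175 FPKM in WT cells at day 0 (SD, n = 3 mice each). It rose by 7.38 in KO and 7.27 in WT cells on the log2(FPKM + 1) scale (limma, adjusted p = 1.27e-16 and 1.59e-16). Spns2, a sphingosine-1-phosphate exporter, rose by 5.89 in KO and 5.88 in WT cells (limma, adjusted p = 5.17e-17 and 5.68e-17), and Xpr1, the phosphate exporter, by 4.28 in KO and 4.34 in WT cells (limma, adjusted p = 1.15e-12 and 9.42e-13). Of 40 such carriers tested, 19 rose and 15 fell in KO cells, and 18 rose and 16 fell in WT cells, with a median log2 difference of 0.17 in KO and 0.02 in WT cells. Of 25 ABC transporters tested, 11 rose and 9 fell in KO cells, and 11 rose and 8 fell in WT cells. Of all genes tested, 38.6% rose and 40.8% fell in KO cells and 39.2% rose and 42.7% fell in WT cells.

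Of 13 partners and enzymes linked to carriers, 8 rose and 3 fell in each genotype, beside the same shares of all genes. Tfrc, the transferrin receptor that feeds the iron carrier Slc11a2, averaged 556 ± 42.0 FPKM in KO and 525 ± 42.9 FPKM in WT cells at day 4, against 86.9 ± 14.1 FPKM in KO and 86.8 ± 19.8 FPKM in WT cells at day 0 (SD, n = 3 mice each). Steap4, a metalloreductase, rose by 6.30 in KO and 6.18 in WT cells (limma, adjusted p = 4.09e-14 and 5.91e-14). Of the lactate dehydrogenase subunits, Ldhb rose by 5.15 in KO and 4.94 in WT cells (limma, adjusted p = 1.43e-13 and 2.93e-13), and Ldha fell by 0.65 in KO and 0.75 in WT cells (limma, adjusted p = 0.00114 and 0.000284).

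At day 0 the libraries of KO mouse 481 and WT mouse 480 stood together for 5 of 171 members, at least 2-fold outside the other 4 libraries, beside 54 of 10081 genes. These were Slc39a4, Slc5a3, Slc6a12 and Slc6a13, higher in both, and Slc40a1, lower in both. Slc39a4 (ZIP4) had 3.92 FPKM in mouse 481 and 8.45 FPKM in mouse 480, and 1.06 to 1.70 FPKM in the others. The same libraries also differed in some markers of cell types, though not in all markers of a type. Cd79a, a B cell gene, had 34.1 FPKM in mouse 481 and 24.3 FPKM in mouse 480, and 4.66 to 10.6 FPKM in the others. S100a9, a neutrophil gene, had 6181 FPKM in mouse 481 and 7683 FPKM in mouse 480, and 2585 to 4149 FPKM in the others. S100a8, Camp, Ltf, Ngp, Lcn2, Retnlg and Csf3r were likewise higher in both of these libraries than in all the others. Ltf had 249 FPKM in mouse 481 and 327 FPKM in mouse 480, and 112 to 170 FPKM in the others. The neutrophil markers Mmp8, Ctsg and Mpo did not follow them. Ctsg had 28.2 FPKM in mouse 481 and 17.1 FPKM in mouse 480, and 24.2 to 38.3 FPKM in the others. Mpo had 56.5 FPKM in mouse 481 and 37.8 FPKM in mouse 480, and 35.7 to 72.7 FPKM in the others. Mrc1, a macrophage gene, had 78.9 FPKM in mouse 481 and 73.7 FPKM in mouse 480, and 145 to 195 FPKM in the others. The macrophage markers Csf1r, Cd14 and Ccr2 went the other way, higher in both of these libraries than in all the others. Cd68, Emr1, Fcgr1, Mertk, C1qa and C1qb did not set these libraries apart. The part of these differences in the day 0 comparisons was not tested.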
